A study of Mus musculus with 49 samples.

Results

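Bmi1-GFP cells were compared with CD274+CD69+ cells, both sorted from crypts of the proximal small intestine of adult mice and profiled by RNA sequencing. The comparison takes 5 of the 49 samples of the series, 3 libraries of Bmi1-GFP cells against 2 libraries of control CD274+CD69+ cells, chosen by their names in the table of read counts. The series used chromatin and RNA assays to follow stem, progenitor and mature cells of the crypt. Bmi1-GFP cells came from untreated mice that carry 1 copy of a GFP reporter at the Bmi1 locus (genotype Bmi-1GFP/+), were released from crypts with TrypLE and were sorted on GFP. CD274+CD69+ cells came from untreated mice labelled wild type, were released with Dispase and were sorted on antibodies to both surface proteins. Both groups share the B6;129 mixed background and a first EDTA step. Ages, and which libraries share a mouse or a day, were not stated, and the labels call the replicates biological. A further pair of CD274+CD69+ libraries came from mice labelled wild type that were given diphtheria toxin (DT, 50 µg/kg, on alternate days), and their values are set beside the results that depend on the control libraries. The enzyme and the genotype differ between the groups and cannot be told apart from the sort.

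Crypts hold proliferating stem and progenitor cells at the base and give rise to absorptive enterocytes and to secretory cells. Secretory cells are set apart by Atoh1 and a loss of Notch signalling, and then become Paneth cells that release antimicrobial proteins, goblet cells that release mucus, or enteroendocrine cells that release peptide hormones and serotonin from dense-core granules. Tuft cells sense luminal chemicals. Bmi1 was first described as a marker of reserve stem cells near the fourth position of the crypt, and CD69 and CD274 (PD-L1) are surface proteins best known from lymphocytes and from the control of T cells.

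The libraries held 14423446, 15858033 and 20271364 counted reads in Bmi1-GFP cells, against 19119454 and 20929264 in CD274+CD69+ cells. Levels are reads relative to the library total (CPM) after TMM scaling, and a gene was called when its adjusted p in edgeR's quasi-likelihood test was below 0.05 over all 14837 genes tested. The CD274+CD69+ libraries stood apart from every other replicate pair. Over genes with at least 100 reads in the pair, the squared deviation of a gene's split of reads between both libraries averaged 4.53 times its binomial variance (median 1.15), against means of 31.5 to 224 in the other 14 replicate pairs of the fit. The labels nevertheless give replicate 1 a TruSeq kit and replicate 2 the SMART-Seq v4 kit used for all Bmi1-GFP libraries. Genes that did separate the pair were mostly lymphocyte genes, such as Cd3e at 3.19 CPM in replicate 1 and 13.3 CPM in replicate 2. Most genes thus differed by little more than sampling noise, and the counts of called genes below are also given with the pair summed and counted as 1 sample, which takes the spread of the lone sample from the other groups.

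Against CD274+CD69+ cells, 1442 genes (9.72%) passed as higher and 1371 (9.24%) as lower, together 19% of those tested. With the CD274+CD69+ pair as 1 sample, 387 (2.49%) were called higher and 385 (2.48%) lower of 15518 genes tested. Changes were larger on the higher side, where 1320 genes (8.9%) passed with a log2 fold change of at least 1, against 340 genes (2.29%) on the lower side. DESeq2's size factors in place of TMM moved the median log2 fold change of all genes to 0.113, against 0.017 with TMM, and the calls to 1547 higher and 872 lower (64% higher, against 51.3% with TMM). By DESeq2's own test 1905 were higher and 1127 lower (62.8% higher). Small decreases below are therefore relative to this choice of scale.

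**Figure D1:**
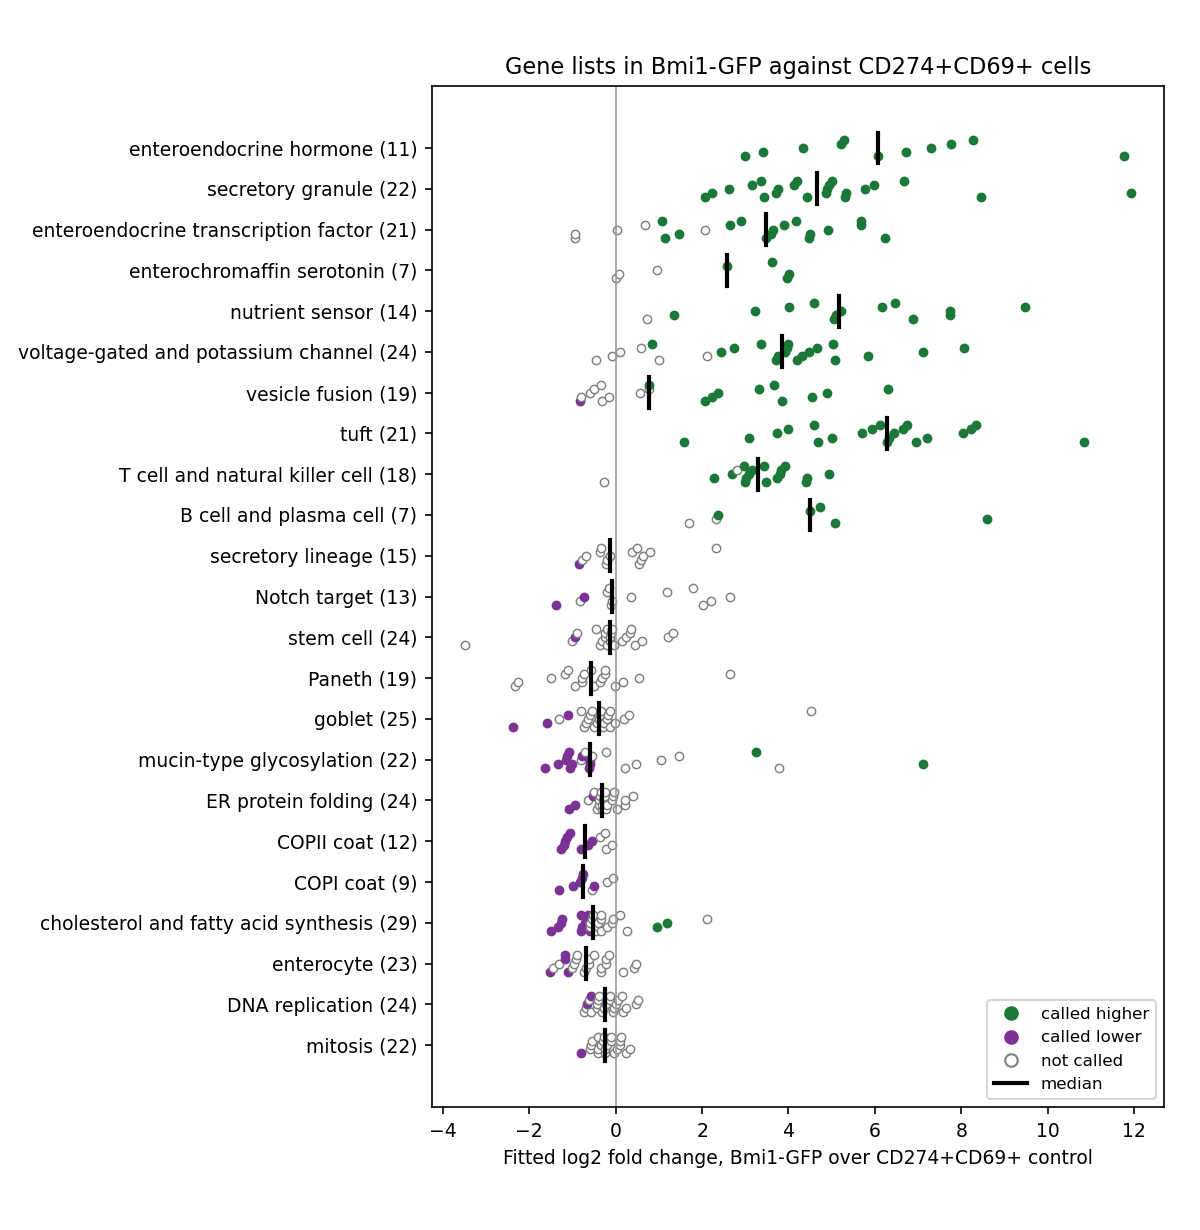
Each point is the fitted log2 fold change of 1 gene, Bmi1-GFP over CD274+CD69+ control, for the lists on the vertical axis, with the number of tested members in brackets; filled points were called, open points were not, and bars mark list medians. Genes with 0 reads in a group are drawn at their fitted value, which is no measured fold. Endocrine and tuft cell lists lie far to the right (medians of 6.07 for hormones and 6.27 for tuft genes), stem, Notch and secretory lineage lists lie around 0, and the coat protein lists lie to the left (medians of -0.72 and -0.75).

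Bmi1 RNA was not called different between the sorts, and Cd274 and Cd69 RNA was higher in Bmi1-GFP cells than in the cells sorted on those proteins. Bmi1, a Polycomb subunit, was at 22.04, 23.9 and 27.4 CPM in Bmi1-GFP cells, against 22.4 and 22.1 CPM in CD274+CD69+ cells. The groups overlapped, and the difference was not called (log2 fold change 0.14, SE 0.16, adjusted p = 0.595). Cd274, which encodes the ligand PD-L1, was at 9.46, 8.44 and 8.21 CPM in Bmi1-GFP cells, against 1.49 and 2.98 CPM in the cells sorted on that protein. Cd69, an early activation antigen of lymphocytes, was at 18.9, 9.84 and 10.0 CPM in Bmi1-GFP cells, against 0.514 and 3.44 CPM in CD274+CD69+ cells. Every Bmi1-GFP library lay above both CD274+CD69+ libraries for Cd274 and for Cd69. Cd274 was called higher (log2 fold change 1.96, SE 0.43, adjusted p = 0.00457), as was Cd69 (2.69, SE 0.90, adjusted p = 0.0444), and both calls were lost with the CD274+CD69+ pair as 1 sample (adjusted p = 0.0568 for Cd274 and 0.175 for Cd69). Surface protein was not measured here. Cd24a, another sort antigen of crypt secretory cells, was at 573, 499 and 282 CPM in Bmi1-GFP cells, against 165 and 180 CPM in CD274+CD69+ cells, with no overlap (log2 fold change 1.39, SE 0.35, adjusted p = 0.00967, or 0.0985 with the pair as 1 sample).

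Lymphocyte RNA moved in the same direction as Cd69. The summed level of 18 T cell and natural killer cell genes was 3022, 1690 and 1310 CPM in Bmi1-GFP cells, against 63.4 and 218 CPM in CD274+CD69+ cells, and 165 and 437 CPM in the DT-treated CD274+CD69+ pair. Cd69 stood at 1.64 and 5.39 CPM in that DT-treated pair, and in each CD274+CD69+ pair the library with more lymphocyte RNA also had more Cd69. Among Bmi1-GFP libraries, replicate 1 had the most of both. Replicate 3 had less lymphocyte RNA than replicate 2 but no less Cd69 (10.0 against 9.84 CPM). Among those genes 16 passed as higher and 0 as lower (6 and 0 with the pair as 1 sample), with a median log2 fold change of 3.30. That median depended on the control library, at 2.64 without CD274+CD69+ replicate 1 and 4.76 without replicate 2. Gzma, a granzyme of cytotoxic lymphocytes, was at 1106, 607 and 453 CPM in Bmi1-GFP cells, against 15.5 and 51.7 CPM in CD274+CD69+ cells. Cd2 and Cd8b1 were the members not called, and Cd8b1, a chain of the CD8 coreceptor, was at 1.94, 1.50 and 1.88 CPM in Bmi1-GFP cells, against 1.03 and 3.21 CPM in CD274+CD69+ cells. Of 7 tested B cell and plasma cell genes, 5 were called higher (4 with the pair as 1 sample, and 2 without CD274+CD69+ replicate 1 or against the DT-treated pair), led by Igj, the joining chain of secreted antibodies, at 152, 166 and 79.8 CPM in Bmi1-GFP cells, against 0 and 0.642 CPM in CD274+CD69+ cells and 8.64 and 39.97 CPM in the DT-treated pair. The part of lymphocytes in Cd69 RNA and in the other differences was not tested. Over all genes, 9.72% were called higher and 9.24% lower, and these short lists were not tested against those shares. Myeloid genes were mixed, with 3 of 18 called higher and 2 lower (2 and 0 with the pair as 1 sample).

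**Figure D2:**
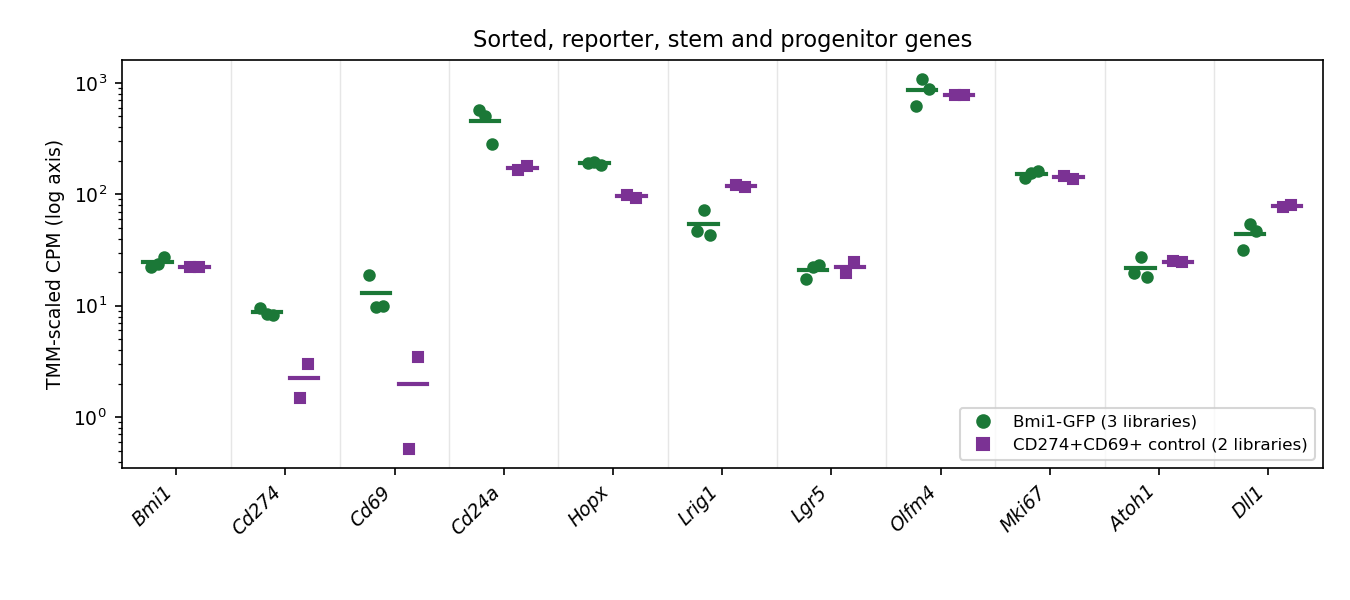
Levels in TMM-scaled CPM (log axis) of sorted, reporter, stem and progenitor genes, with the 3 Bmi1-GFP libraries as circles on the left of each gene, the 2 CD274+CD69+ control libraries as squares on the right, and means as lines. Cd274, Cd69, Cd24a and Hopx lie higher in Bmi1-GFP cells, Lrig1 and Dll1 lie lower, and Bmi1, Lgr5, Olfm4, Mki67 and Atoh1 overlap.

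Genes of the enteroendocrine lineage were far higher in Bmi1-GFP cells. All 11 tested hormone genes were called higher (9 with the pair as 1 sample), with log2 fold changes of 3.00 to 8.28, Gast left out because CD274+CD69+ cells had 0 reads of it. The median over the 11 genes was 6.07, against 0.017 over all genes. Summed over 12 hormone genes in the table, the level was 11490, 9514 and 7136 CPM in Bmi1-GFP cells, against 176 and 147 CPM in CD274+CD69+ cells, so that hormone RNA was low but present in the second group. In bulk libraries fewer cells of a type and less RNA per cell cannot be told apart. Hormones of several endocrine cell types took part. Ghrl, which encodes ghrelin, the hunger hormone, was at 2972, 2566 and 2435 CPM in Bmi1-GFP cells, against 10.7 and 6.33 CPM in CD274+CD69+ cells (log2 fold change 8.28, SE 0.55, adjusted p = 4.62e-08). Cck, the hormone of fat-sensing I cells that contracts the gallbladder, stood at 2658, 2051 and 2105 CPM, against 24.5 and 18.8 CPM in CD274+CD69+ cells. Neither hormone varied much among Bmi1-GFP libraries.

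Other hormones varied more among the 3 Bmi1-GFP libraries, with replicate 3 often lowest. Sst, the inhibitory hormone somatostatin of D cells, was at 1261, 629 and 329 CPM in Bmi1-GFP cells, against 3.96 and 5.46 CPM in CD274+CD69+ cells. Gip, an incretin, stood at 2085, 1824 and 736 CPM, against 43.7 and 35.3 CPM in CD274+CD69+ cells. Gast, the gastrin gene, ran the other way, at 0.294, 14.5 and 52.3 CPM in Bmi1-GFP replicates 1 to 3, with 0 reads in both CD274+CD69+ libraries. It was at least 308-fold higher over the group means, taking 3 reads over both libraries as the floor, and its call was lost with the pair as 1 sample (adjusted p = 0.0607). Of the 7 genes of enterochromaffin cells, which make serotonin, 4 were called higher under both counts. Tph1, the rate-limiting enzyme of serotonin synthesis, was at 515, 273 and 113 CPM in Bmi1-GFP cells, against 21.5 and 15.6 CPM in CD274+CD69+ cells. Ddc, the next enzyme of the pathway, which enterocytes also express, was not called (267, 263 and 325 CPM against 287 and 278 CPM in CD274+CD69+ cells, log2 fold change 0.01).

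**Figure D3:**
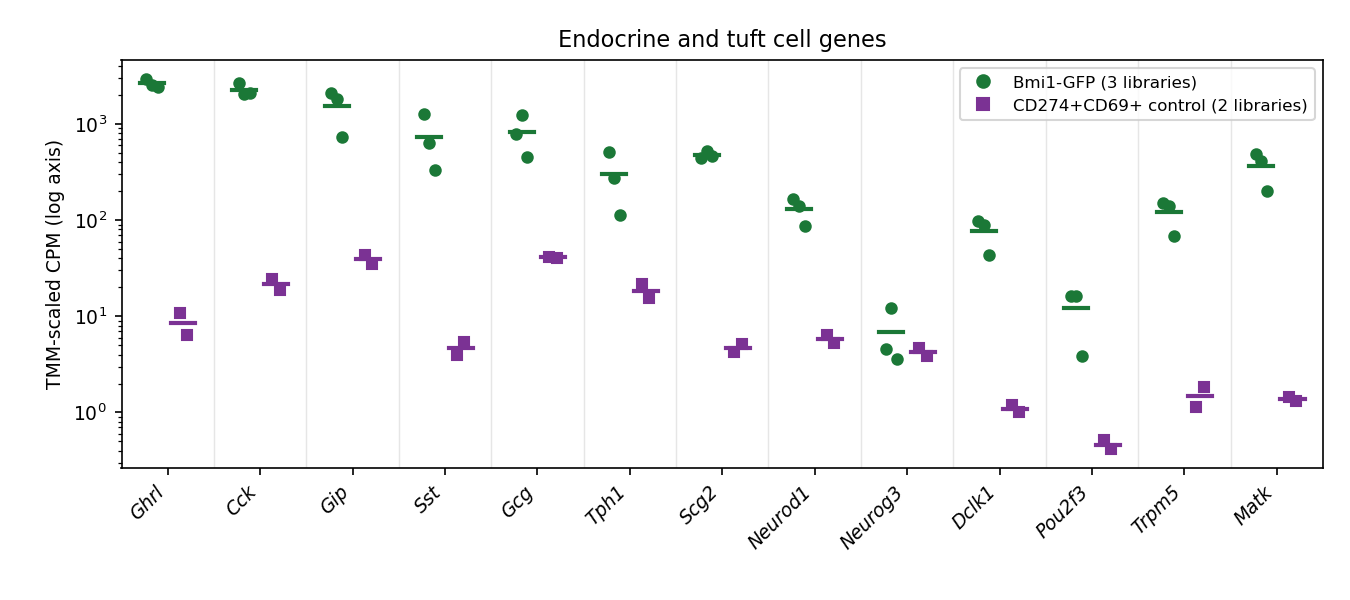
Levels in TMM-scaled CPM (log axis) of endocrine and tuft cell genes, with the 3 Bmi1-GFP libraries as circles on the left of each gene, the 2 CD274+CD69+ control libraries as squares on the right, and means as lines. The groups do not overlap for any gene shown except Neurog3, and Bmi1-GFP replicate 3 is the lowest of its group for Gip, Sst, Gcg, Tph1 and the tuft genes Dclk1, Pou2f3, Trpm5 and Matk.

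Granule proteins and prohormone enzymes rose with the hormones. All 22 tested granule genes were called higher (18 with the pair as 1 sample), with a median log2 fold change of 4.65. Scg2, a granin that helps form dense-core granules, was at 442, 524 and 470 CPM in Bmi1-GFP cells, against 4.21 and 5.18 CPM in CD274+CD69+ cells, with the lowest p of any gene on the lists (log2 fold change 6.67, SE 0.38, unadjusted p = 4.86e-13). Pcsk1, the convertase that cuts prohormones, stood at 92.4, 127 and 83.6 CPM, against 10.4 and 9.35 CPM in CD274+CD69+ cells. Chgb, another granin, stood at 2875, 3444 and 1033 CPM, against 193 and 168 CPM in CD274+CD69+ cells. Pcsk1n, an inhibitor of that convertase, had 42.3, 30.3 and 1.84 CPM in Bmi1-GFP cells and 0 reads in both CD274+CD69+ libraries, at least 341-fold higher. Scg2 was the steadiest of these among Bmi1-GFP libraries, and replicate 3 was lowest for Pcsk1, Chgb and Pcsk1n.

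The promoters of Scg2, Pcsk1 and Chgb are shown because these granule genes share the cyclic AMP response element, TGACGTCA, just upstream of the start. The octamer reads the same on both strands. It was present in the windows of 3 of 17 granule genes that have one (17.6%), against 549 of 27025 genes with a window (2.03%) and 388 of the 11108 tested genes with a window (3.49%). Windows run from 250 bases before to 50 bases after the start in RefSeq (GRCm38.p6), and this octamer and the coat gene element given further on were chosen after the counts of 7 motifs over 33 lists were seen. A match describes the letters and shows no binding. Capitals mark the octamer in the upstream stretches.
Scg2 (chr1:79440031-79440150, minus strand): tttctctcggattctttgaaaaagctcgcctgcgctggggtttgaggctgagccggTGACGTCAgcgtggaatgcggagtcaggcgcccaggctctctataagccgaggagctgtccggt
Pcsk1 (chr13:75089723-75089842, plus strand): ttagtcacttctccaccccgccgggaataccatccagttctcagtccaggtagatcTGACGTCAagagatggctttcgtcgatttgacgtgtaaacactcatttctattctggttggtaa
Chgb (chr2:132781514-132781633, plus strand): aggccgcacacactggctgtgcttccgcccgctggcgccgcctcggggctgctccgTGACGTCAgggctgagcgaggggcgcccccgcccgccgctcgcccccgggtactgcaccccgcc

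Transcription factors of the endocrine lineage were mostly higher, while Neurog3, the earliest of them, was not called. Of 21 factors tested, 16 were called higher and 0 lower (11 and 0 with the pair as 1 sample), with a median log2 fold change of 3.48. Neurod1, which acts just after endocrine commitment, was at 166, 140 and 86.6 CPM in Bmi1-GFP cells, against 6.42 and 5.27 CPM in CD274+CD69+ cells. Isl1, a LIM homeobox factor, stood at 54.7, 50.3 and 26.4 CPM, against 2.52 and 1.38 CPM in CD274+CD69+ cells. Neurog3, which starts endocrine differentiation and is switched off soon after, was at 4.58, 12.2 and 3.63 CPM in Bmi1-GFP cells against 4.68 and 3.85 CPM in CD274+CD69+ cells. Its groups overlapped, and Bmi1-GFP replicate 2 was highest. Pax4, Foxa1 and Pdx1 were among the other factors not called.

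Sensors and channels of endocrine cells followed the same direction. Of 14 receptors for nutrients and for regulatory signals, 13 were called higher and 0 lower (9 and 0 with the pair as 1 sample), with a median log2 fold change of 5.16, or 4.82 with genes at 0 reads set to their bound. Ffar2, a receptor for short-chain fatty acids, was at 52.4, 44.8 and 25.4 CPM in Bmi1-GFP cells, against 3.90 and 4.77 CPM in CD274+CD69+ cells. Ffar3, another receptor of that family, stood at 31.6, 23.2 and 10.9 CPM, against 0.0514 and 0 CPM (1 read in both libraries) in CD274+CD69+ cells. Of 24 calcium, sodium and potassium channel genes, 18 were called higher and 0 lower (8 and 0 with the pair as 1 sample). Kcnh6, a voltage-gated potassium channel, stood at 36.1, 44.1 and 18.4 CPM, against 1.70 and 1.60 CPM in CD274+CD69+ cells. Abcc8, the sulfonylurea receptor that pairs with Kcnj11, stood at 36.1, 40.1 and 23.9 CPM, against 2.41 and 1.97 CPM in CD274+CD69+ cells. Kcnn4, a calcium-activated channel of crypt epithelium, was the most expressed of those not called (108, 120 and 101 CPM against 158 and 142 CPM in CD274+CD69+ cells). Vesicle fusion genes were split, with 10 of 19 called higher and 1 lower (6 and 0 with the pair as 1 sample), the lower one being Cadps2, a vesicle priming factor (13.1, 15.9 and 18.6 CPM against 28.3 and 27.7 CPM in CD274+CD69+ cells), while its relative Cadps was higher (17.4, 21.7 and 12.8 CPM against 0.822 and 0.642 CPM in CD274+CD69+ cells).

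Tuft cell genes formed the second large block that was higher in Bmi1-GFP cells. All 21 tested tuft genes were called higher (9 with the pair as 1 sample), with a median log2 fold change of 6.27, or 5.94 with genes at 0 reads set to their bound. Their summed level was 1624, 1403 and 733 CPM in Bmi1-GFP cells, against 94.6 and 98.6 CPM in CD274+CD69+ cells. Hepacam2, which secretory progenitors also express, made up most of the sum in CD274+CD69+ cells (250, 263 and 205 CPM in Bmi1-GFP cells against 77.0 and 81.8 CPM in CD274+CD69+ cells, log2 fold change 1.59). Dclk1, a kinase that marks tuft cells, was at 98.6, 88.2 and 43.9 CPM in Bmi1-GFP cells, against 1.18 and 1.01 CPM in CD274+CD69+ cells (log2 fold change 6.13, adjusted p = 0.00247). Trpm5, the cation channel of taste signalling, stood at 153, 141 and 69.0 CPM, against 1.13 and 1.83 CPM in CD274+CD69+ cells. Its call was lost with the pair as 1 sample (adjusted p = 0.0516). Pou2f3, the factor that tuft cells require, stood at 16.4, 16.2 and 3.85 CPM, against 0.514 and 0.413 CPM in CD274+CD69+ cells. Bmi1-GFP replicate 3 was lowest for each of these genes and still lay above both CD274+CD69+ libraries.

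Several signalling genes were among the 10 largest increases of genes at 20 CPM or more. Matk, a kinase that restrains Src kinases and a member of the tuft list, was at 490, 414 and 201 CPM in Bmi1-GFP cells, against 1.44 and 1.33 CPM in CD274+CD69+ cells. Nrgn, the calmodulin-binding protein neurogranin, Basp1, a membrane-associated protein of growing axons, and Cd300lf, an immune receptor, had log2 fold changes of 8.09, 8.32 and 7.89. Rgs22, of the family that limits G protein signalling, was at 29.4, 28.2 and 11.8 CPM in Bmi1-GFP cells, against 0.0514 and 0.0917 CPM (3 reads in all) in CD274+CD69+ cells. For all of them replicate 3 was lowest among Bmi1-GFP libraries, as it was for the tuft, T cell and B cell sums.

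**Figure D4:**
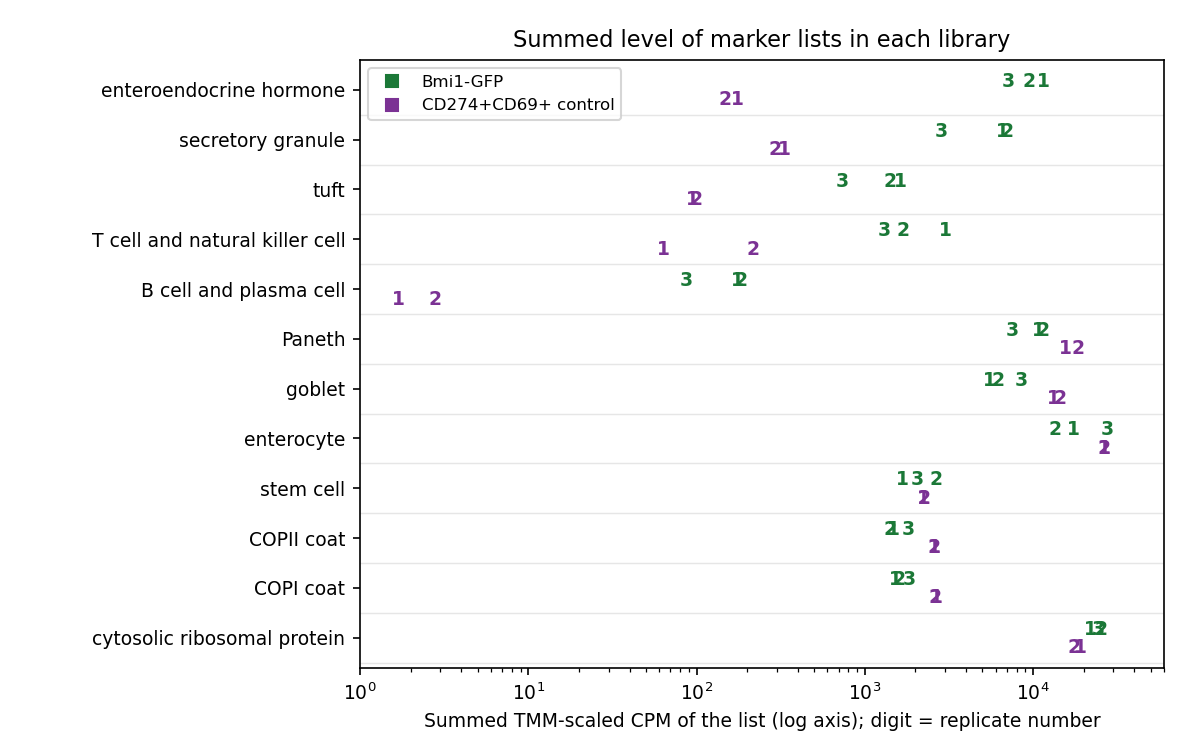
Summed TMM-scaled CPM (log axis) of 12 gene lists in each library; each digit is a replicate number, Bmi1-GFP above and CD274+CD69+ control below within a list. Hormone, granule, tuft and lymphocyte sums are separated by wide gaps, with Bmi1-GFP replicate 3 lowest of its group, while stem cell and enterocyte sums overlap.

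Most early secretory, Notch and stem cell genes were not called, as was true of all genes (9.72% called higher and 9.24% lower). Lists this short were not tested against those shares, and genes not called are not shown to be equal. Of 15 secretory lineage genes, 0 were called higher and 1 lower, with a median log2 fold change of -0.13. Atoh1, the factor that sets the secretory fate, was at 19.9, 27.2 and 18.1 CPM in Bmi1-GFP cells, against 25.0 and 24.7 CPM in CD274+CD69+ cells, with overlap. Dll1, the Notch ligand of secretory precursors, was the member called lower, at 31.4, 53.7 and 46.5 CPM, against 77.5 and 80.8 CPM in CD274+CD69+ cells (log2 fold change -0.85, SE 0.27, adjusted p = 0.0358). The Dll1 call was lost with the pair as 1 sample. Of 13 Notch pathway genes, 2 were called lower, Jag1, a ligand, at 7.11, 7.92 and 8.17 CPM against 19.7 and 20.7 CPM in CD274+CD69+ cells, and Dtx4, of the Deltex family, at 37.2, 46.0 and 31.4 CPM against 64.2 and 62.4 CPM in CD274+CD69+ cells. With the pair as 1 sample Jag1 was still called (adjusted p = 0.0133) and Dtx4 was not (adjusted p = 0.117). Hes1, the main Notch target of the crypt, was not called (67.1, 73.5 and 52.7 CPM against 73.2 and 70.1 CPM in CD274+CD69+ cells).

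Of 24 stem cell genes, 1 was called lower and 0 higher (0 and 0 with the pair as 1 sample). Lgr5 was at 17.4, 22.2 and 23.4 CPM in Bmi1-GFP cells, against 19.5 and 24.8 CPM in CD274+CD69+ cells, and Olfm4, a secreted marker of crypt base cells, at 620, 1092 and 885 CPM against 783 and 784 CPM in CD274+CD69+ cells. Both overlapped between the groups. Ephb2, the receptor that keeps cells at the crypt base, was the member called lower (19.5, 23.2 and 21.3 CPM against 43.8 and 38.7 CPM in CD274+CD69+ cells, log2 fold change -0.95, adjusted p = 0.0069), and that call was lost with the pair as 1 sample (adjusted p = 0.0514). Among 5 genes reported as markers of reserve stem cells, Hopx, a homeodomain protein, and Lrig1, an inhibitor of ErbB signalling, went opposite ways. Hopx was at 191, 195 and 182 CPM in Bmi1-GFP cells, against 97.8 and 93.5 CPM in CD274+CD69+ cells (log2 fold change 0.98, SE 0.20, adjusted p = 0.00278). Lrig1 stood at 47.1, 73.0 and 42.9 CPM, against 121 and 115 CPM in CD274+CD69+ cells (log2 fold change -1.12, SE 0.32, adjusted p = 0.0196). Neither call held with the pair as 1 sample (adjusted p = 0.0502 for Hopx and 0.0948 for Lrig1). Of 24 replication and 22 mitosis genes, 2 and 1 were called lower (0 of either list with the pair as 1 sample), and Mki67, the proliferation antigen, was not called (141, 157 and 162 CPM against 147 and 137 CPM in CD274+CD69+ cells).

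Paneth and goblet products were present in both groups. For scale, 9.72% of all genes were called higher and 9.24% lower. Of 19 tested Paneth genes, 0 were called in either direction by edgeR over the whole table. Their median log2 fold change was -0.57, with 3 of 19 above 0. In that fit 5 had an unadjusted p below 0.05, and 1 was called higher by DESeq2. Fitted with the compared groups only, 7 were called lower and 1 higher by edgeR. Against the DT-treated pair 0 were called and the median was 0.36. Summed over 21 genes in the table, levels were 10780, 11470 and 7511 CPM in Bmi1-GFP cells, against 15510 and 18450 CPM in CD274+CD69+ cells. The DT-treated pair had 9531 and 7543 CPM. Lyz1, the lysozyme of Paneth granules, was at 5224, 6335 and 3743 CPM in Bmi1-GFP cells, against 7807 and 9671 CPM in CD274+CD69+ cells (log2 fold change -0.78, SE 0.42). Reads of alpha-defensin genes can be shared between near-identical copies, so single defensins are uncertain. Of 25 goblet genes, 3 were called lower and 0 higher (2 and 0 with the pair as 1 sample). Fcgbp, a mucus protein that binds to Muc2, was at 762, 933 and 1714 CPM in Bmi1-GFP cells, against 5408 and 6416 CPM in CD274+CD69+ cells (log2 fold change -2.38, SE 0.45, adjusted p = 0.00172), and at 4901 and 3756 CPM in the DT-treated pair. Muc2 itself, the gel-forming mucin, was not called (326, 247 and 429 CPM against 413 and 404 CPM in CD274+CD69+ cells). Bcas1 and Ern2, the stress sensor of mucus-secreting cells, were the other members called lower.

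Many enzymes that build sugar chains on mucins were lower in Bmi1-GFP cells. Their counts stand beside 9.72% of all genes called higher and 9.24% lower. Of 22 glycosylation genes, 11 were called lower and 2 higher (5 and 0 with the pair as 1 sample), with a median log2 fold change of -0.60. Gcnt4, which branches O-glycans, was at 35.8, 38.6 and 32.4 CPM in Bmi1-GFP cells, against 90.6 and 88.3 CPM in CD274+CD69+ cells (log2 fold change -1.33, SE 0.25). Galnt10 and Galnt6, which attach the first sugar, had log2 fold changes of -1.15 and -1.07, and Fut4, a fucosyltransferase, -1.07. St6galnac6 and Fut2 were the members called higher. Fut2, the secretor fucosyltransferase, was at 5.88, 7.56 and 4.63 CPM in Bmi1-GFP cells, against 0.565 and 0.688 CPM in CD274+CD69+ cells but 57.2 and 4.32 CPM in the DT-treated pair.

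Most genes of the COPII and COPI vesicle coats were lower in Bmi1-GFP cells. Fewer genes of the clathrin coat and its adaptors were called lower (4 of 16), still above the 9.24% of all genes called lower. These lists and the one of lipid synthesis genes were chosen after values were seen, so their counts are descriptions. Of 12 genes of the COPII coat, which carries cargo out of the endoplasmic reticulum, 8 were called lower and 0 higher (3 and 0 with the pair as 1 sample), and all 12 log2 fold changes were negative, with a median of -0.72. Sec24c, a cargo-binding subunit, was at 139, 157 and 165 CPM in Bmi1-GFP cells, against 344 and 347 CPM in CD274+CD69+ cells (log2 fold change -1.17, adjusted p = 9.03e-05), and 340 and 360 CPM in the DT-treated pair. Sec16a, the scaffold of exit sites, stood at 66.9, 56.3 and 49.9 CPM, against 133 and 145 CPM in CD274+CD69+ cells. Of 9 genes of the COPI coat, which returns cargo from the Golgi, 6 were called lower and 0 higher (4 and 0 with the pair as 1 sample), with a median of -0.75. Copa, its largest subunit, stood at 212, 235 and 215 CPM, against 545 and 557 CPM in CD274+CD69+ cells (log2 fold change -1.32, adjusted p = 7.56e-05), and 437 and 519 CPM in the DT-treated pair. The small subunits Cope and Copz1 were not called (log2 fold changes -0.06 and -0.19). Of 16 clathrin and adaptor genes, 4 were called lower and 0 higher (3 and 0 with the pair as 1 sample), with a median of -0.18 and 5 log2 fold changes above 0. The clathrin heavy chain Cltc was at 283, 303 and 336 CPM in Bmi1-GFP cells, against 757 and 762 CPM in CD274+CD69+ cells. Bmi1-GFP and CD274+CD69+ libraries did not overlap for Sec24c, Sec16a, Copa or Cltc. Over all genes, 31.7% had every Bmi1-GFP library below both CD274+CD69+ libraries, and 29.7% had every one above.

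Some coat genes carry in their promoter the unfolded protein response element TGACGTGG, which Xbp1 and Atf6 recognise, and 3 of them are shown for that reason. On either strand it lay in the windows of 3 of 12 COPII genes (25%) and 2 of 8 COPI genes (25%), against 193 of 27025 genes (0.714%) and 116 of the 11108 tested genes (1.04%) with a window. It differs from the granule motif in its last letters, and 0 of the 17 granule genes and 0 of 19 genes of folding in the endoplasmic reticulum held it. Of the other motifs searched, those 19 genes held TGACGTGA in 1 (Hspa5), against 0.693% of tested genes. They held TGACGCAA in 2 (Dnajb9 and Herpud1, 10.5%), against 0.99% of tested genes, and CCAATCAG in 9 (47.4%), against 6.25% of tested genes. The 3 upstream matches follow, with capitals marking the element, which lies on the opposite strand in Copb1. In Sec23a and Copb2 the match lies after the start and is not shown. The log2 fold changes of the genes shown were -1.19 for Sec16b, -1.06 for Sec24d and -0.51 for Copb1, all called lower, as were 9.24% of all genes. Of the unfolded protein response itself, 3 of 24 genes of folding in the endoplasmic reticulum were called lower (1 with the pair as 1 sample), and Hspa5, its main chaperone, was not called (848, 1044 and 1213 CPM against 1646 and 1592 CPM in CD274+CD69+ cells).
Sec16b (chr1:157506696-157506795, plus strand): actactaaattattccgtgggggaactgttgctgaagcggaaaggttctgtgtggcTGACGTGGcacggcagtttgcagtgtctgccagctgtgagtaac
Sec24d (chr3:123267414-123267495, plus strand): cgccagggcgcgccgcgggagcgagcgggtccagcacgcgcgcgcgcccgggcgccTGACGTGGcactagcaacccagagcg
Copb1 (chr7:114254681-114254764, minus strand): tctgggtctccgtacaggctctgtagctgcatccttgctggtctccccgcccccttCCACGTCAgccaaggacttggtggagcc

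**Figure D5:**
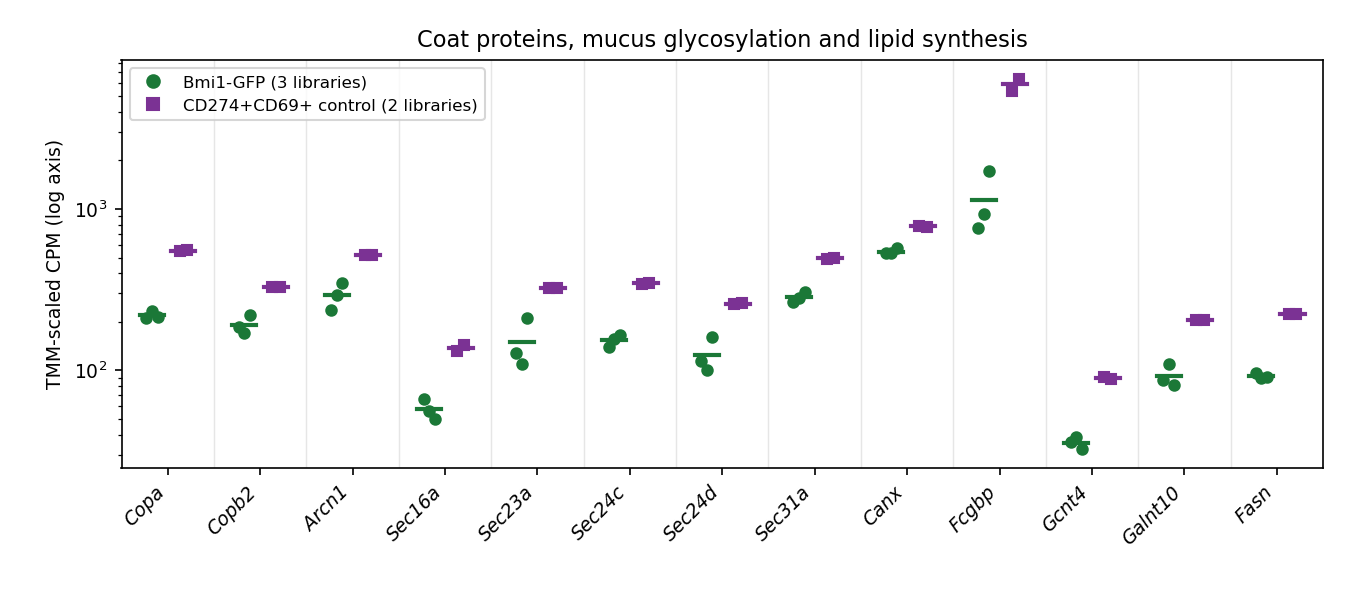
Levels in TMM-scaled CPM (log axis) of vesicle coat, mucus and lipid synthesis genes, and of Canx, a gene of folding in the endoplasmic reticulum. Circles on the left of each gene are the 3 Bmi1-GFP libraries, squares on the right the 2 CD274+CD69+ control libraries, and lines are means. The genes are a selection, and Muc2, Cope and Copz1, which were not called, are left out. Every gene shown is lower in all 3 Bmi1-GFP libraries, by the widest margin for Fcgbp, and the 2 control libraries lie nearly on top of each other.

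Of 29 genes of cholesterol and fatty acid synthesis and uptake, 11 were called lower and 2 higher (4 and 1 with the pair as 1 sample), with a median log2 fold change of -0.52, against -0.03 when the DT-treated pair took the place of the controls. Fasn, fatty acid synthase, was at 96.2, 90.2 and 91.5 CPM in Bmi1-GFP cells, against 223 and 224 CPM in CD274+CD69+ cells and 243 and 210 CPM in the DT-treated pair. Hmgcs1, an early enzyme of the cholesterol pathway, was called lower against the controls (217, 177 and 204 CPM against 352 and 342 CPM in CD274+CD69+ cells) but stood at 183 and 206 CPM in the DT-treated pair. The counts of this list and of the enterocyte list stand beside 9.72% of all genes called higher and 9.24% lower. Of 23 enterocyte genes, 4 were called lower and 0 higher (0 and 0 with the pair as 1 sample), among them Anpep, a brush border peptidase, at 383, 255 and 624 CPM against 1198 and 1201 CPM in CD274+CD69+ cells. Anpep was at 432 and 1025 CPM in the DT-treated pair, against which it was not called (log2 fold change -0.79, adjusted p = 0.204), and the enterocyte median of -0.68 became 0.03 there.

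The largest decreases of single genes rested in part on the control pair. Slc37a2, a sugar phosphate exchanger, was at 2.12, 2.69 and 5.37 CPM in Bmi1-GFP cells, against 72.5 and 73.6 CPM in CD274+CD69+ cells (log2 fold change -4.42, SE 0.60, adjusted p = 1.55e-04), but at 1.27 and 5.39 CPM in the DT-treated pair. Pim1, a serine/threonine kinase, stood at 8.64, 6.63 and 8.21 CPM, against 122 and 113 CPM in CD274+CD69+ cells (log2 fold change -3.91, SE 0.33, adjusted p = 1.04e-06), but at 8.06 and 7.92 CPM in the DT-treated pair. Both genes were thus high in the control pair alone among these 7 libraries. Myo7a, an unconventional myosin, was at 26.1, 24.9 and 36.7 CPM in Bmi1-GFP cells, against 97.1 and 96.2 CPM in CD274+CD69+ cells, and 105 and 124 CPM in the DT-treated pair. F3, the coagulation tissue factor, stood at 2.65, 4.20 and 6.21 CPM, against 20.5 and 23.1 CPM in CD274+CD69+ cells and 13.3 and 11.2 CPM in the DT-treated pair. Pmaip1, the p53 target Noxa, stood at 48.4, 47.1 and 73.4 CPM, against 213 and 218 CPM in CD274+CD69+ cells and 81.5 and 106 CPM in the DT-treated pair, against which it was not called (log2 fold change -0.73, adjusted p = 0.0924). Cers6, a ceramide synthase, Vav2, an exchange factor for small GTPases, Sipa1l2, of a family of GTPase activators, and Chdh, choline dehydrogenase, had log2 fold changes of -1.72, -1.72, -1.70 and -1.69.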

How the data were processed

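Bowtie2, TopHat2 2.0.6, DESeq2 and the build mm10 are named in the submitters' processing notes, with no role. The deposited file holds raw read counts per gene as the authors made them, for 24062 symbols; how reads were counted and whether by strand is not given in the sources used here, so overlapping genes cannot be separated. The analysis used edgeR 4.0.16 in R 4.3.3 (filterByExpr, minimum count 10 and total 15; TMM; 1 quasi-likelihood model over 24 libraries of 11 groups; Benjamini-Hochberg adjustment), with DESeq2 1.42.0 as an alternative. SE is the absolute log2 fold change over the square root of F. Reads and floors cover counting error only, and p-values cover the spread between libraries, which may be technical. The main edgeR fit was tested on simulated counts, and DESeq2's fold changes were compared with it there. The simulated CD274+CD69+ pair took each gene's spread from the whole fit, unlike the closer pair in the data. The other settings, bounds, sums and promoter search were not tested in this way. Named genes were the sort and reporter genes, the 10 largest called changes per direction (20 CPM or more in the higher group, no overlap, called without CD274+CD69+ replicate 1) and, per list, up to 4 called members of lowest p, the most expressed member not called and members called against the majority; Chgb, Pcsk1, Dclk1, Trpm5, Pou2f3, Abcc8, Neurog3, Atoh1, Muc2, Cd3e, Gip, Gast, Kcnj11, Cd8a and the coat and lipid genes were added after their values were seen. Members and lists were chosen with earlier results of these data known. The replicate numbers shared by the groups were checked as pairs (correlations of deviations of -0.107 and -0.00564). The 2 CD274+CD69+ libraries mirror each other around their mean and differ by little more than sampling noise. The check therefore could not show whether the numbers pair the samples. Promoter sequences are RefSeq's (GRCm38.p6). Some genes that the rule names are not reported here.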

Additional observations from a re-analysis of the deposited data

How the results depend on the processing

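Counts of calls depended most on the CD274+CD69+ libraries and on the samples sharing a spread. Against 1442 genes higher and 1371 lower, fitting only the compared groups gave 2249 higher and 2240 lower, leaving out every TruSeq library gave 264 higher and 191 lower, and counting the CD274+CD69+ pair as 1 sample (chosen after seeing the data) gave 387 higher and 385 lower. DESeq2's size factors lowered the lower count to 872. Leaving out 1 library gave 308 to 1464 genes higher and 295 to 1145 lower, with the fewest without CD274+CD69+ replicate 1 (308 and 295), then without its replicate 2 (448 and 356) and without Bmi1-GFP replicate 1 (912 and 574) or replicate 2 (1147 and 782). Dropping the filter gave 1358 and 1303, the DT-treated pair in place of the controls 1503 and 1550, and the replicate block, whose numbers are not known to pair the samples, 1361 and 1180. With the DT-treated pair 5 named genes that were called in either fit changed sign: Slc37a2 (log2 fold change 0.046), Zfp36 (0.27), Clu (-0.069), Areg (1.40) and Fut2 (-2.36). A further 7 named genes, called in neither fit, also changed sign. The cause was not tested. Where a CD274+CD69+ library is left out, the lone sample is assumed to vary like the other groups. Genes with 3 or fewer reads in a group have no usable fold.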

Other observations

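Stress, regeneration and housekeeping genes had not entered the comparisons above. Their counts stand beside 9.72% of all genes called higher and 9.24% lower. Of 19 immediate early and heat shock genes, 2 were called lower in Bmi1-GFP cells, Jun and Zfp36 (0 with the CD274+CD69+ pair as 1 sample). The list median was -0.58 against the controls and 0.46 against the DT-treated pair, where 3 genes were called higher and 4 lower. Jun was at 1101, 1064 and 607 CPM in Bmi1-GFP cells, against 1846 and 1838 CPM in control CD274+CD69+ cells and 789 and 1209 CPM in DT-treated CD274+CD69+ cells, so the groups did not overlap for the controls and did for the DT-treated pair. Of 13 tested genes of regenerating epithelium, 3 were called higher (Clu, Krt7 and Ly6d), and with the CD274+CD69+ pair as 1 sample 1 was. Clu, clusterin, was at 5.52, 4.40 and 9.22 CPM in Bmi1-GFP cells, against 0.925 and 0.642 CPM in control CD274+CD69+ cells and 7.53 and 5.88 CPM in the DT-treated pair.

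Of 81 cytosolic ribosomal protein genes, 0 were called in either direction by edgeR over the whole table, 7 had an unadjusted p below 0.05 and 5 were called higher by DESeq2, while 76 had a log2 fold change above 0 (median 0.41, or 0.50 with DESeq2's size factors). Fitted with the compared groups only, 53 of them were called higher. Alb, the plasma protein albumin, was high in 1 Bmi1-GFP library, at 114, 3.73 and 3.06 CPM, against 0.257 and 0.0917 CPM in control CD274+CD69+ cells, and its call was lost with the pair as 1 sample (adjusted p = 0.055). Itgam, a myeloid integrin, was lower in Bmi1-GFP cells (9.76, 13.9 and 13.6 CPM against 28.5 and 28.0 CPM in CD274+CD69+ cells), a call lost with the pair as 1 sample (adjusted p = 0.0553), while Fcer1g, an immune receptor chain, was higher (47.3, 26.4 and 26.96 CPM against 1.03 and 1.60 CPM in CD274+CD69+ cells).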
